A study of Mus musculus with 8 samples.

Results

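The mRNA of 10 mouse genes for cystine uptake and for the making, recycling and breakdown of glutathione was followed in all 8 libraries of a study of auranofin, a gold compound used as an antirheumatic drug. The genes are Slc7a11, Slc3a2, Gclc, Gclm, Gss, Gsr, Glrx, Ggt1, Ggt5 and Chac2. They were taken by gene symbol alone, and each had 1 row in both deposited tables, so that 10 of the 18645 genes listed for hepatic stellate cells (HSCs) and 10 of the 17408 genes listed for bone marrow-derived macrophages (BMDMs) are described. A mean of at least 1 FPKM (fragments scaled to transcript length and to library size) over the 4 libraries of a table was required for a test, which 9 of the 10 genes met in HSCs and 8 of 10 in BMDMs.

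All cells came from C57BL/6 mice. The HSCs, collagen-producing cells of the liver, were isolated by density gradient, are labelled as activated, and were kept 12 h with auranofin at 0.03 µM or with vehicle (untreated by the labels). The BMDMs were grown with M-CSF for 7 days from marrow of 8-week-old male mice, primed with LPS at 100 ng/mL for 4 h, then given ATP at 1 mM without or with auranofin for 1 h, so that their vehicle group carried LPS and ATP as well. The auranofin dose of the BMDMs is 0.1 µM by the sample labels and 0.3 µM by a figure legend. The 4 groups had 2 libraries each, from a kit that keeps the strand of mRNA. The sources do not say that the replicates were separate animals or cultures, so p-values measure the spread between these libraries, which may be technical.

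Glutathione is a small thiol peptide of glutamate, cysteine and glycine, and cysteine is usually the scarce part. Cells take up its oxidized form, cystine, through system xc, an exchanger that releases glutamate and is built from the transport chain xCT (Slc7a11) and the heavy chain CD98 (Slc3a2), which xCT shares with other amino acid transporters. Glutamate-cysteine ligase, with the catalytic subunit Gclc and the modifier subunit Gclm, joins glutamate and cysteine, and Gss adds glycine. Gsr returns oxidized glutathione to its reduced form with NADPH, and Glrx uses glutathione to reduce oxidized protein thiols. Ggt1 and Ggt5 cleave glutathione outside the cell, and Chac2 cleaves it in the cytosol. Slc7a11, Gclc, Gclm and Gsr are known targets of NRF2, a transcription factor that responds to electrophiles and oxidants, and Slc7a11 is also a target of ATF4, which responds to amino acid shortage.

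The promoter entries of Slc7a11, of its partner Slc3a2 and of Gclm are shown, because Slc7a11 and Gclm had the largest changes among the 10 genes and Slc3a2 pairs with Slc7a11. They run from 250 bases before to 50 bases after the transcript start and are from RefSeq on GRCm38.p6, the assembly of mm10. In Slc7a11 (chr3:50443564-50443863, minus strand) and Gclm (chr3:122245307-122245606, plus strand) capitals mark matches to the motifs described next, and Slc3a2 (chr19:8713848-8714147, minus strand) had none.
Slc7a11: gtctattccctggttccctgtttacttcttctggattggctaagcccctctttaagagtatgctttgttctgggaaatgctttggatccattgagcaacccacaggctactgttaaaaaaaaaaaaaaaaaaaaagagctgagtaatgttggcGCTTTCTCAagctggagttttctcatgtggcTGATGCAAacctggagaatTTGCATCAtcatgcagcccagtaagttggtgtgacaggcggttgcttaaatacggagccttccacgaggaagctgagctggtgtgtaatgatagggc
Slc3a2: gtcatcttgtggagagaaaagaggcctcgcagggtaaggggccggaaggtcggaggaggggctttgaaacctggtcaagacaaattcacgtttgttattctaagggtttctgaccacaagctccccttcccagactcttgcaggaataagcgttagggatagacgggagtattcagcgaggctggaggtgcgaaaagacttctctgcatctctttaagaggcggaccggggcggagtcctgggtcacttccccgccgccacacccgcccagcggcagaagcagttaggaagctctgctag
Gclm: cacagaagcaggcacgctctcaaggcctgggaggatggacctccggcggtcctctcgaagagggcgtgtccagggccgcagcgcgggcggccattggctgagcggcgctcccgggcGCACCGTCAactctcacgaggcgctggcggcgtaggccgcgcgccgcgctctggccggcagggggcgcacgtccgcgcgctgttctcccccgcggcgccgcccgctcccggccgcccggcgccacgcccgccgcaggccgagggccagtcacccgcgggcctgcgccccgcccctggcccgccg

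The letters searched on both strands were TGACNNNGC and TGAGNNNGC, cores of the antioxidant response element to which NRF2 binds, TGATGCAA, a core of the amino acid response element to which ATF4 binds, and TGACTCA, the AP-1 element. They were chosen after the values of the genes were known. Slc7a11 held TGAGNNNGC on the reverse strand at positions -97 to -89 from the transcript start, and TGATGCAA in opposite orientations at -66 to -59 and at -47 to -40. Gclm held TGACNNNGC on the reverse strand at -134 to -126. No match in these 2 windows overlapped another. Of 32851 promoters of 300 bases, 12.4% held TGACNNNGC, 17.6% TGAGNNNGC, 0.895% TGATGCAA and 5.2% TGACTCA. Entries were matched for 7 of the 10 genes, and the promoters of Gclc, Gsr and Ggt5 were not analysed here. Of the others, Glrx held TGACTCA, 3 of the 4 entries of Ggt1 held a match to TGACNNNGC and Gss and Chac2 held none of the letters searched.

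The depth of a library was estimated from the steps of 1 fragment among low FPKM values as 29800000 to 39600000 fragments in HSCs and 27400000 to 34900000 in BMDMs, and intervals based on it cover counting error only. Among genes of at least 10 FPKM, 13 to 35 of 6430 differed at least 2-fold between any 2 HSC libraries. In BMDMs 383 of 4245 differed at least 2-fold between the auranofin libraries and 14 between the vehicle libraries. BMDM auranofin replicate 1 stood apart, with 368 and 377 such genes against the vehicle libraries, where auranofin replicate 2 had 15 and 12. Results from BMDMs are therefore given for each auranofin library. The summed FPKM of 15 macrophage marker genes was 9740 to 9892 in the HSC libraries, above that of 13 stellate cell markers, which was 3783 and 3943 with vehicle and 3359 and 3459 with auranofin. By these lists, cultures labelled as HSCs therefore held more macrophage than stellate marker mRNA, an order that depends on the genes listed. Which cells of these cultures carried the changes described below was not tested. In BMDMs the macrophage markers summed to 8481 to 9199 and the stellate markers to 10.2 to 16.2.

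In vehicle-treated HSCs the order of the genes by FPKM, which is scaled to transcript length, ran from Slc3a2 with 63.4 and 86.7 FPKM, through Gclm, Gsr, Glrx, Gclc, Gss, Chac2 and Slc7a11, to Ggt1 and Ggt5 below 1 FPKM. Gclm (40.0 and 34.9 FPKM) and Gsr (38.0 and 33.0 FPKM) overlapped, as did Ggt1 and Ggt5, and the other neighbours did not. In vehicle-treated BMDMs Slc3a2 (337 and 246 FPKM) and Glrx (251 and 237 FPKM) overlapped at the top. They were followed by Gsr, Gclm, Chac2, Gss, Slc7a11 and Gclc with no overlap between neighbours, and by Ggt5 and Ggt1 below 0.1 FPKM. The tables were normalized separately, so places among the 16671 genes listed in both were compared. Glrx stood at the 77.6th and 78.3rd percentile in the HSC vehicle libraries and at the 98.1st and 98th in the BMDM vehicle libraries. Slc7a11 stood at the 36.3rd and 33.3rd percentile in HSCs and at the 60.3rd and 60.7th in BMDMs, while Gclc went the other way, from the 73.4th and 71.2nd to the 52.3rd and 52.2nd. This comparison of cell types is a description with no test, since cell type, medium and LPS/ATP cannot be told apart. The HSC libraries also held macrophage marker mRNA, and Lyz2 alone had 5519 and 5554 FPKM of their vehicle sums. Single macrophage markers differed between the tables in both directions. Cd68 had 645 and 670 FPKM in HSC vehicle libraries against 1846 and 1755 in BMDM vehicle libraries. Cd5l had 1474 and 1499 FPKM against 111 and 108. The marker sums therefore do not rank the 2 cultures by macrophage content.

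**Figure D1:**
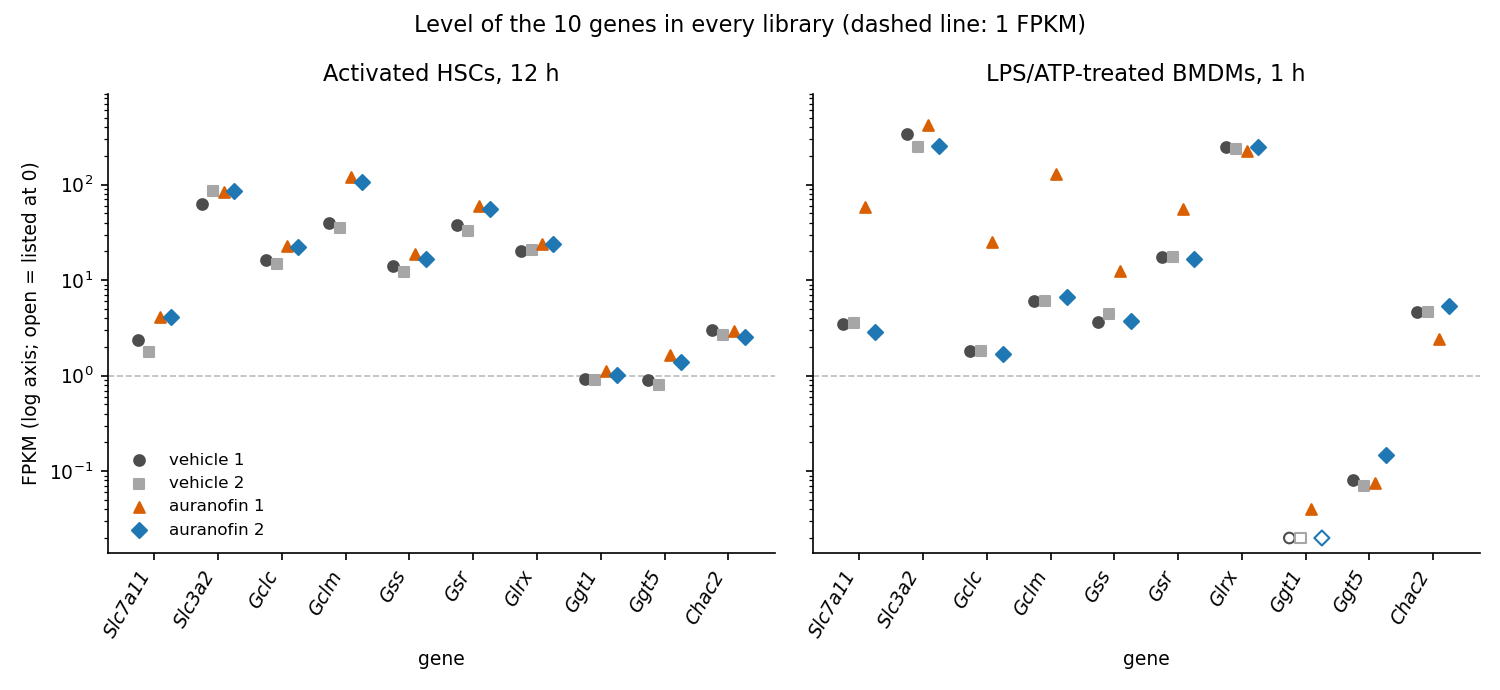
FPKM on a log axis of the 10 genes in the 4 HSC libraries (left) and the 4 BMDM libraries (right), 1 point for each library, with open points at the bottom for genes listed at 0. In HSCs both auranofin libraries lie above both vehicle libraries for 8 of the 10 genes. These are 7 of the 9 tested, beside 26.2% of all genes tested, and Ggt1, which was too low for a test. In BMDMs auranofin replicate 1 departs from the other 3 libraries in Slc7a11, Gclc, Gclm, Gss, Gsr and Chac2.

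To see how 12 h of auranofin bore on these genes in HSCs, the auranofin libraries were compared with vehicle. Slc7a11, Gclc, Gclm and Gsr were higher with auranofin, by between 1.43 and 3.05 times in the ratio of group means, and none of the 10 genes was lower by the test. Counting calls at an adjusted p under 0.05 (limma with Benjamini-Hochberg adjustment over 12149 genes), 4 of the 9 genes tested were called higher, where 1.24% of all genes tested were. Without auranofin replicate 1, the log2 fold changes of Slc7a11, Gclc, Gclm and Gsr were 0.73, 0.48, 1.49 and 0.62, and the calls of Slc7a11 and Gclc did not hold. When an unadjusted p under 0.05 and 1.5-fold or more were asked for, 3 of 9 were called higher, beside 0.428% of all genes. Both auranofin libraries lay above both vehicle libraries in 7 of the 9, beside 26.2% of all genes. Ggt5 is among the 9 tested only through its auranofin libraries, so these counts describe the genes that passed and are not independent support. With 2 libraries a group, the smallest two-sided p of an exact permutation test is 0.333.

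Slc7a11 (NCBI gene 26570) occupies bases 50364936 to 50499087 of mm10 chromosome 3. Its FPKM was 2.37 and 1.77 with vehicle and 4.15 and 4.07 with auranofin. The auranofin libraries were nearly alike and lay above both vehicle libraries. The group means were 2.07 ± 0.425 and 4.11 ± 0.0548 FPKM (SD, n = 2 each). On the log2(FPKM + 1) scale, on which all fold changes are given and which understates those of low genes, the change was 0.74 (standard error 0.10, adjusted p = 0.0292 by limma). Of 12149 genes, 44 had a larger mean rise. The vehicle values stood for about 684 and 537 fragments, with Poisson 95% intervals of 634 to 737 and 493 to 584, so that the vehicle libraries differed from each other by more than counting error. The call of Slc7a11 was lost in some settings, with adjusted p = 0.0582 by limma without the variance trend, 0.127 without the filter on low genes, 0.0819 without auranofin replicate 1 and 0.0647 without auranofin replicate 2.

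Slc3a2 (NCBI gene 17254, chromosome 19 from 8706882 to 8723369) had 63.4 and 86.7 FPKM in vehicle libraries against 83.4 and 86.6 FPKM with auranofin. The groups overlapped, because vehicle replicate 2 matched the auranofin libraries and vehicle replicate 1 lay below them. By limma, its log2 fold change of 0.20 (standard error 0.14) had adjusted p = 0.511. A larger gap between the vehicle libraries was seen in 1.28% of the genes tested. Leaving out vehicle replicate 1 gave a log2 fold change of -0.027, and leaving out vehicle replicate 2 one of 0.42, with adjusted p = 0.00269 by limma. In these and all other fits with a library left out, 1 group has a single library, which is taken to vary like the other group. The difference between the partners of system xc was not tested. The ratio of Slc3a2 to Slc7a11 went from 26.8 and 49.1 with vehicle to 20.1 and 21.3 with auranofin.

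Among the synthesis genes, Gclm (NCBI gene 14630, chromosome 3 from 122245487 to 122267215) had the largest change. It had 40.0 and 34.9 FPKM in vehicle libraries against 121 and 107 FPKM with auranofin. The auranofin libraries were 3.24 and 2.86 times the vehicle mean, and 5 of the 12149 genes had a larger mean rise. This was a log2 fold change of 1.58, with a standard error of 0.08 and adjusted p = 0.00210 by limma. Gclm kept its call in every setting tried except a fit without moderation of the variance, where 0 of 12149 genes were called at an adjusted p under 0.05 and 1585 had an unadjusted p under 0.05.

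Gclc (NCBI gene 14629, chromosome 9 from 77754535 to 77794489), the catalytic partner of Gclm, had 16.4 and 14.8 FPKM in vehicle libraries against 22.6 and 22.1 FPKM with auranofin. Its groups did not overlap, and its change was smaller than that of Gclm. At a log2 fold change of 0.49 (standard error 0.06), which is under 1.5-fold, it was called by adjusted p = 0.0169 from limma, and missed the threshold without auranofin replicate 1 (adjusted p = 0.0535). The ratio of Gclm to Gclc was 2.44 and 2.36 with vehicle and 5.37 and 4.85 with auranofin, so the modifier subunit was higher relative to the catalytic subunit in both auranofin libraries. Gss (NCBI gene 14854, chromosome 2 from 155563181 to 155592810) had 14.1 and 12.3 FPKM in vehicle libraries against 18.7 and 16.7 FPKM with auranofin. The Gss groups did not overlap, and the log2 fold change of 0.39 (standard error 0.08) missed the threshold, with adjusted p = 0.0776 by limma. Gss passed with the replicate number as a block (adjusted p = 0.0287 by limma) and without vehicle replicate 1 (adjusted p = 0.00744). The ratio of Gclc to Gss was 1.16 and 1.20 with vehicle and 1.21 and 1.33 with auranofin.

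Gsr (NCBI gene 14782, chromosome 8 from 33653238 to 33698162), which recycles oxidized glutathione, had 38.0 and 33.0 FPKM in vehicle libraries against 59.4 and 55.0 FPKM with auranofin. Both auranofin libraries were well above the vehicle libraries, and the change passed both thresholds. Its log2 fold change of 0.68 (standard error 0.07) had adjusted p = 0.0144 by limma. Glrx (NCBI gene 93692, chromosome 13 from 75839885 to 75850151) had 20.1 and 20.8 FPKM in vehicle libraries against 24.0 and 23.6 FPKM with auranofin. Its libraries were close to each other within both groups, which did not overlap. The Glrx log2 fold change of 0.21 (standard error 0.04) missed the threshold, with adjusted p = 0.0644 by limma. Without the filter on low genes, when 18645 genes were tested, the calls of Gclc and Gsr were lost, with adjusted p = 0.0823 and 0.0864 by limma.

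The breakdown genes were low. Ggt5 (NCBI gene 23887, chromosome 10 from 75589327 to 75617200) had 0.911 and 0.794 FPKM in vehicle libraries against 1.66 and 1.40 FPKM with auranofin, about 126 and 115 against 218 and 245 fragments. The Poisson 95% intervals of the vehicle libraries reached up to 150 fragments and those of the auranofin libraries down to 190. The counts were thus apart by more than counting error, but they are not scaled to depth, which differed between the libraries. At 0.45 (standard error 0.09), the log2 fold change missed the threshold, with adjusted p = 0.0776 by limma. Ggt1 (NCBI gene 14598, chromosome 10 from 75561076 to 75586193) ends 3133 bases before Ggt5 starts. It had 0.928 and 0.909 FPKM in vehicle libraries against 1.11 and 1.03 FPKM with auranofin, so that its mean fell short of 1 FPKM. When all genes were tested it had a log2 fold change of 0.11 and adjusted p = 0.478 by limma. Chac2 (NCBI gene 68044, chromosome 11 from 30976707 to 30986365) had 2.99 and 2.64 FPKM in vehicle libraries against 2.92 and 2.51 FPKM with auranofin, with overlapping groups. Limma gave Chac2 a log2 fold change of -0.04 (standard error 0.09) and adjusted p = 0.863.

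**Figure D2:**
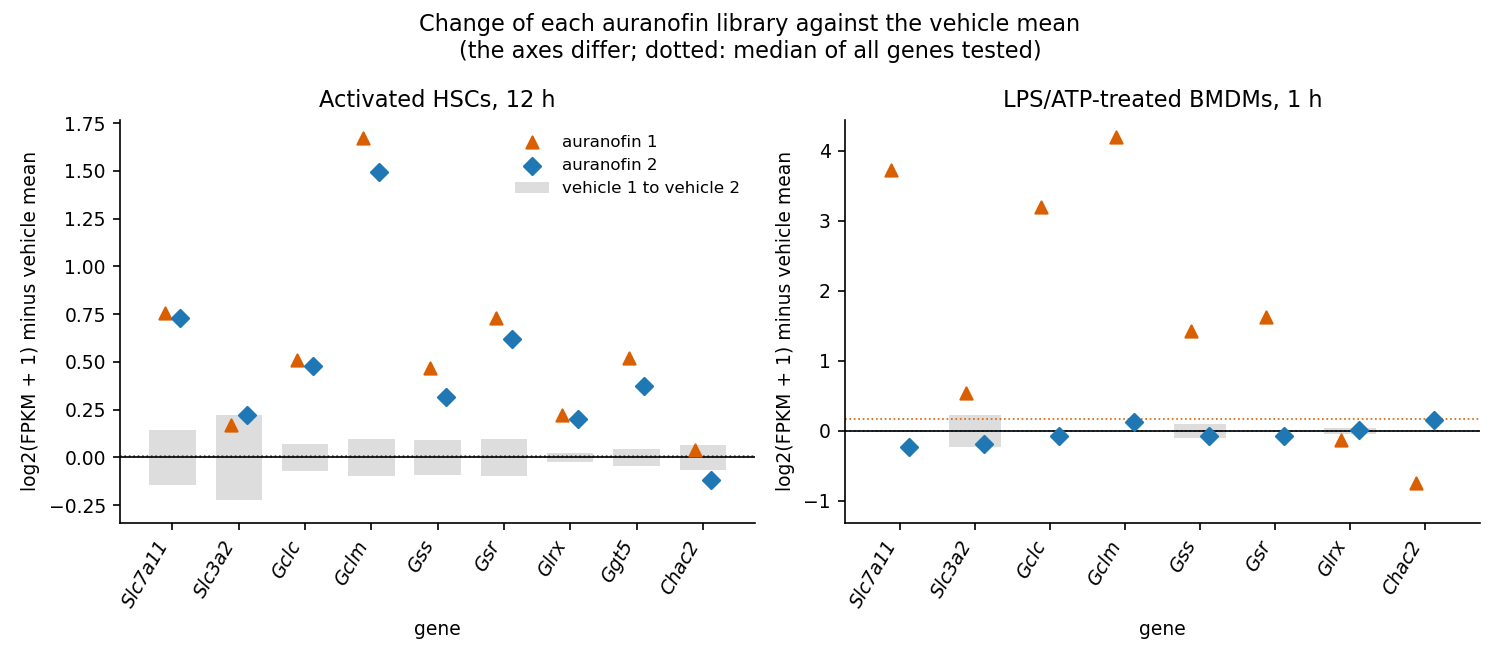
Difference on the log2(FPKM + 1) scale of each auranofin library from the vehicle mean, for the 9 genes tested in HSCs (left) and the 8 tested in BMDMs (right), on axes of different range. Grey bars span the vehicle libraries and dotted lines are the medians of all genes tested. The HSC auranofin libraries lie close together, with Gclm highest at 1.67 and 1.49, whereas in BMDMs replicate 1 reaches 4.20 for Gclm and replicate 2 stays between -0.23 and 0.15.

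Over the 9 genes tested in HSCs, the log2 difference from the vehicle mean had a median of 0.51 in the first and 0.38 in the second auranofin library, beside 0.00497 and 0.00544 over all genes tested. Cell type markers were read beside these changes. The summed stellate markers were lower in both auranofin libraries, and 1 of the 13, Acta2, was called lower, beside 1.09% of all genes tested. The summed macrophage markers overlapped between groups, with 9787 and 9892 FPKM in vehicle libraries against 9839 and 9740 FPKM with auranofin. Of 14 macrophage markers tested, 1 was called higher, Clec4f, with a log2 fold change of 0.27, beside 1.24% of all genes tested. Endothelial markers summed to 362 and 360 FPKM in vehicle libraries against 354 and 342 FPKM with auranofin. Of these 10 markers 3 were called lower, beside 1.09% of all genes tested. Hepatocyte markers summed to at most 2.83 FPKM. Neutrophil markers summed to 19.2 and 7.16 FPKM with vehicle and to 6.68 and 86.7 FPKM with auranofin. No marker listed in the HSC table was at 0 in all 4 libraries. In bulk RNA, fewer cells of a type and less RNA per cell cannot be told apart, and the part of cell composition in these changes was not tested.

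In LPS/ATP-treated BMDMs, 1 h of auranofin gave unlike results in the 2 auranofin libraries. In replicate 1, Gclm, Slc7a11 and Gclc were between 13.6 and 21.2 times the vehicle mean, Gsr and Gss about 3 times, and Chac2 about 0.5 times. In replicate 2, the 8 genes tested lay between 0.809 and 1.13 times the vehicle mean. On the log2(FPKM + 1) scale, replicate 1 was at least 1.5-fold above the vehicle mean in 5 of the 8 genes, beside 15.2% of all genes tested, and at least 1.5-fold below it in 1, beside 8.07%. Replicate 2 was at least 1.5-fold above it in 0 of 8, beside 0.379%. The median log2 difference of the 8 genes was 1.53 in replicate 1, beside 0.18 over all genes, and -0.07 in replicate 2, beside 0.00494 over all genes.

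With auranofin libraries this far apart, limma called 0 of the 8 genes at an adjusted p under 0.05, beside 0.0108% of 9232 genes, and 0 of 8 by fold and unadjusted p, beside 0.152%. Over all genes, 49 had an unadjusted p under 0.05, and none of the 8 was among them. The adjusted p of the 8 genes ran from 0.721 to 0.827. Only Gclm had both auranofin libraries on the same side of both vehicle libraries, beside 38.8% of all genes whose groups did not overlap. Without auranofin replicate 2, 6 of the 8 genes were called at an adjusted p under 0.05, as were 65% of all genes. Without auranofin replicate 1, the log2 fold changes of all but Gclm changed direction.

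Slc7a11 in BMDMs had 3.48 and 3.60 FPKM in vehicle libraries against 59.0 and 2.87 FPKM with auranofin. Replicate 1 was 16.7 times the vehicle mean, and replicate 2 was below both vehicle libraries. The log2 fold change of 1.75 had a standard error of 1.40, and 8 of 9232 genes had a larger rise in replicate 1. Its partner Slc3a2 had 337 and 246 FPKM in vehicle libraries against 419 and 254 FPKM with auranofin. Replicate 1 was 1.44 times the vehicle mean, a rise exceeded by 1619 genes, and replicate 2 lay between the vehicle libraries. The ratio of Slc3a2 to Slc7a11 was 96.8 and 68.4 with vehicle, 7.10 in auranofin replicate 1 and 88.6 in replicate 2, so that in replicate 1 the transport chain came nearest to the shared heavy chain.

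Gclm had 6.08 and 6.12 FPKM in vehicle libraries against 129 and 6.72 FPKM with auranofin. The vehicle libraries were nearly equal, and replicate 2 was 1.10 times their mean, a log2 difference of 0.12 that 1077 genes exceeded. In replicate 1, with 21.2 times the vehicle mean, 6 genes had a larger rise. Gclc had 1.83 and 1.81 FPKM in vehicle libraries against 24.8 and 1.68 FPKM with auranofin. Replicate 1 was 13.6 times the vehicle mean, and replicate 2 was below both vehicle libraries. Gss had 3.68 and 4.38 FPKM in vehicle libraries against 12.5 and 3.77 FPKM with auranofin. The ratio of Gclm to Gclc was 3.32 and 3.38 with vehicle and 5.22 and 4.0 with auranofin, above vehicle in both auranofin libraries, and no test was made of it. In replicate 2 Gclc stood for about 198 fragments (Poisson 95% interval 171 to 228), against 187 and 170 with vehicle. The ratio of that library carries this counting error. The ratio of Gclc to Gss was 0.499 and 0.415 with vehicle, 1.99 in auranofin replicate 1 and 0.446 in replicate 2.

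Gsr had 17.4 FPKM in both vehicle libraries and 55.9 and 16.5 FPKM with auranofin, 3.21 times the vehicle mean in replicate 1. Glrx, among the most abundant of the 10 genes in BMDMs, had 251 and 237 FPKM in vehicle libraries against 223 and 246 FPKM with auranofin. Unlike the synthesis genes, Glrx was below the vehicle mean in replicate 1, at 0.915 times. Chac2 had 4.69 and 4.70 FPKM in vehicle libraries against 2.41 and 5.32 FPKM with auranofin. In replicate 1, where the synthesis genes were high, this breakdown gene was 0.513 times the vehicle mean, and 495 genes had a larger fall. Ggt5 had 0.0804 and 0.0703 FPKM in vehicle libraries against 0.0760 and 0.146 FPKM with auranofin, which stands for between 8.49 and 22.1 fragments. Ggt1 was listed at 0 in 3 BMDM libraries and had 0.0403 FPKM in auranofin replicate 1, about 3 fragments, the number that a count of 0 still allows in a library. Neither could be compared between groups at this depth.

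**Figure D3:**
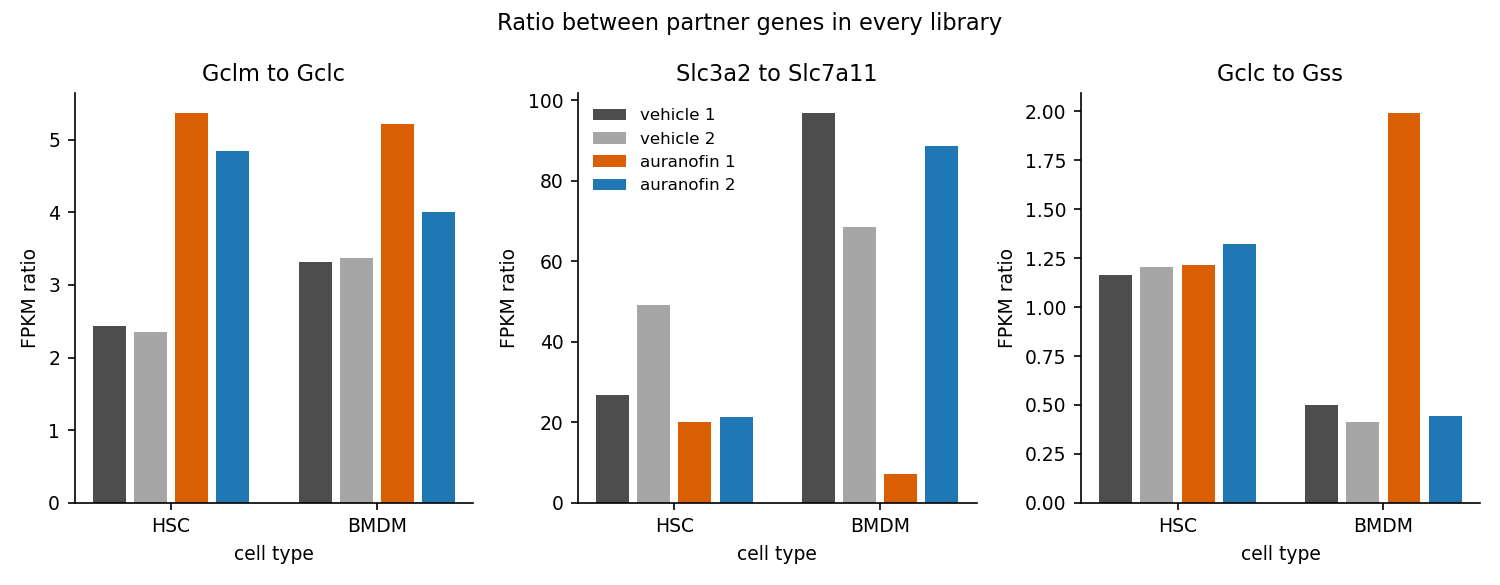
Ratio of FPKM between the subunits of glutamate-cysteine ligase (left), the chains of system xc (middle) and the synthesis enzymes Gclc and Gss (right), 1 bar for each library, with vehicle in grey and auranofin in colour. Gclm to Gclc is higher in every auranofin library than in the vehicle libraries of its table. Slc3a2 to Slc7a11 falls to 7.10 in BMDM auranofin replicate 1 and is 88.6 in replicate 2.

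In BMDMs the summed macrophage markers were 8644 and 8481 FPKM in vehicle libraries against 9199 and 8633 FPKM with auranofin. Of 12 macrophage markers tested, 2 were at least 1.5-fold lower in auranofin replicate 1, beside 8.07% of all genes tested. None was higher by that much, beside 15.2% of all genes. Neutrophil markers summed to 207 and 215 FPKM in vehicle libraries against 280 and 292 FPKM with auranofin. The part of cell composition, sample handling, exposure or library preparation in the gap between the auranofin replicates was not tested.

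Genes around the pathway were read from 6 lists, described by counts and medians. Other transporters that pair with CD98, together with Cd44, were not among the genes called higher in HSCs. Of 5 tested, 0 were called higher, beside 1.24% of all genes tested, and 1 lower, beside 1.09%. The gene called lower was Slc7a8, a neutral amino acid transporter, at a log2 fold change of -0.34 (adjusted p = 0.0269 by limma). Slc7a5 and Slc7a7 had HSC log2 fold changes of -0.15 and -0.13. In BMDM auranofin replicate 1 these transporters went both ways, with Slc7a5 at 1.44, Slc7a7 at 0.470 and Slc7a8 at 0.865 times the vehicle mean. Cd44, a surface protein that stabilizes xCT and is named here after its values were seen, had 47.5 and 46.7 FPKM in vehicle libraries against 43.7 and 43.8 FPKM with auranofin in HSCs. In BMDMs it had 253 and 258 FPKM in vehicle libraries against 251 and 252 FPKM with auranofin, so the library in which Slc7a11 was 16.7 times vehicle was close to vehicle in Cd44.

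For other cysteine supply and use, 0 of 12 genes tested in HSCs were called, with a median log2 fold change of -0.07. Of all genes tested, 1.24% were called higher and 1.09% lower. In BMDM auranofin replicate 1 the median was 0.39, beside 0.18 over all genes, and 2 of 11 were at least 1.5-fold higher, a share close to the 15.2% of all genes. That count is on the log2(FPKM + 1) scale, which understates changes of low genes. As ratios of FPKM, Slc1a5, Mat2a and Mtrr were 1.93, 1.75 and 1.96 times the vehicle mean there. For glutathione breakdown and transport, 1 of 12 was called higher in HSCs, beside 1.24% of all genes tested. This was Abcc1, an exporter of glutathione conjugates, with 31.7 and 30.8 FPKM in vehicle libraries against 49.4 and 46.0 FPKM with auranofin. Its log2 fold change was 0.59 (adjusted p = 0.00606 by limma), whereas the median of the list was -0.08. Chac1, which cleaves glutathione as Chac2 does, was 2.08 times the vehicle mean in BMDM auranofin replicate 1, the opposite direction to Chac2. In HSCs Chac1 had 9.0 and 10.2 FPKM in vehicle libraries against 8.59 and 9.10 FPKM with auranofin, and Cndp2, a dipeptidase, had a log2 fold change of 0.14 (adjusted p = 0.0898 by limma).

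Of 8 glutaredoxins and glutathione-dependent thiol enzymes, 1 was called higher in HSCs, beside 1.24% of all genes tested. This was Esd, which hydrolyses S-formylglutathione. It had 197 and 175 FPKM in vehicle libraries against 341 and 317 FPKM with auranofin, a log2 fold change of 0.82 (adjusted p = 0.00606 by limma). The glutaredoxin genes Glrx5 and Glrx3 had HSC log2 fold changes of 0.10 and 0.07. In BMDM auranofin replicate 1 they were 1.72 and 1.54 times the vehicle mean and Esd 3.32 times, where Glrx itself was 0.915 times.

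Among 23 other NRF2 targets, a list chosen with earlier results of these data known, 18 were called higher in HSCs and 1 lower, beside 1.24% and 1.09% of all genes tested. Their median log2 fold change was 0.65. Hmox1, which degrades heme, went from 391 and 368 FPKM to 1297 and 1141 FPKM, Nqo1, a quinone reductase, from 20.2 and 15.5 FPKM to 54.4 and 46.8 FPKM, and Gsta3, a glutathione transferase, from 5.53 and 4.87 FPKM to 17.2 and 14.1 FPKM. The gene called lower was Nfe2l2, which encodes NRF2 itself, at a log2 fold change of -0.26 (adjusted p = 0.0289 by limma). In BMDM auranofin replicate 1, 16 of the 20 tested were at least 1.5-fold above the vehicle mean, beside 15.2% of all genes, and in replicate 2 none was, beside 0.379%. Hmox1 there had 82.7 and 86.7 FPKM in vehicle libraries against 4403 and 85.3 FPKM with auranofin, the same split between replicates as Gclm and Slc7a11.

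Of 16 ATF4 target genes of the amino acid response, 0 were called in HSCs, and the median log2 fold change was -0.04. Of all genes tested, 1.24% were called higher and 1.09% lower, so 0 of 16 is close to the share of all genes. In BMDM auranofin replicate 1, 6 of the 14 tested were at least 1.5-fold above the vehicle mean, beside 15.2% of all genes, and 2 at least 1.5-fold below it, beside 8.07%, with a median of 0.16, close to the 0.18 of all genes. Sesn2, Trib3 and Ddit4 had HSC log2 fold changes of 0.11, 0.11 and 0.09. In BMDM auranofin replicate 1 they were 3.14, 2.77 and 3.61 times the vehicle mean, and in replicate 2 Ddit4 was 1.65 times.

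**Figure D4:**
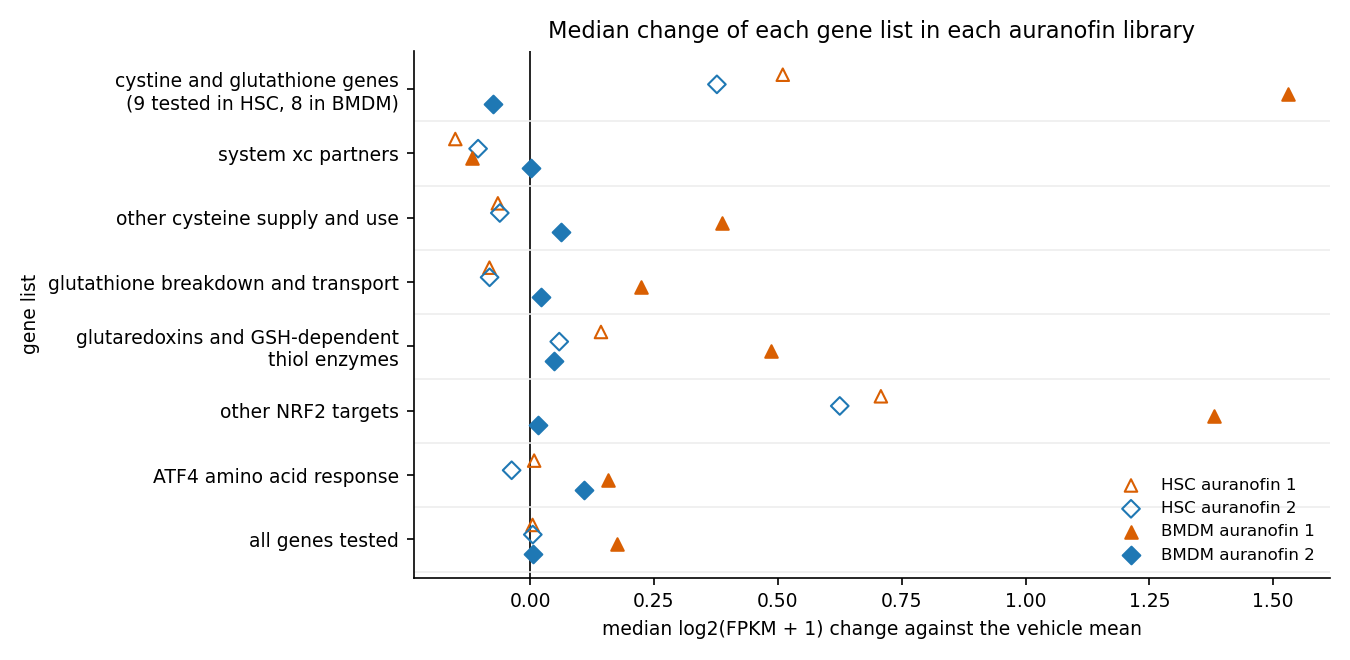
Median difference on the log2(FPKM + 1) scale from the vehicle mean of the cystine and glutathione genes, 6 other gene lists and all genes tested, with 1 point for each auranofin library (open HSC, filled BMDM). The other NRF2 targets lie nearest to the cystine and glutathione genes in HSCs and in BMDM auranofin replicate 1, where their median is 1.38, and the medians of BMDM auranofin replicate 2 lie between -0.07 and 0.11.

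Genes with the most similar pattern were sought by Euclidean distance between log2 differences from the vehicle mean in the 4 auranofin libraries, over 8963 genes tested in both tables. This is a description over 4 libraries that share their vehicle libraries by table, and the distance is set mainly by BMDM auranofin replicate 1. Nearest to Slc7a11 was Gclc, at a distance of 0.658, then Slc40a1, the iron exporter ferroportin, at 0.697, and Hsph1, a heat shock protein, at 0.875. Slc40a1 had log2 differences of 0.47 and 0.42 in HSCs and of 4.28 and -0.26 in BMDMs. Nearest to Gclm was Srxn1, which reduces oxidized peroxiredoxins, at 0.619, followed by Slc7a11 at 1.33 and Hmox1 at 1.49. Srxn1 had log2 differences of 1.24 and 1.12 in HSCs and of 4.37 and -0.03 in BMDMs, and Hmox1 of 1.77 and 1.58 in HSCs and of 5.68 and 0.01 in BMDMs.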

How the data were processed

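RNA was sequenced from 8 mouse libraries, and the 10 genes and the lists were chosen with earlier results of these data known. The authors deposited 1 table of FPKM values per cell type, with RefSeq genes on mm10. The submitters' processing notes name CASAVA, FastQC 0.11.7, Trimmomatic 0.38, HISAT2 2.1.0 and StringTie 1.3.4d, without settings. An FPKM value is scaled to transcript length and to library size. FPKM sums ranged from 430372 to 485467, and no counts are given. Groups and replicate numbers came from the labels, and each column was matched to its sample by name.

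Each table was fitted alone, because dose, time and normalization differ. In R 4.3.3, limma 3.58.1 (lmFit, then eBayes with a variance trend) compared the groups on log2(FPKM + 1) of the deposited values. Only genes whose mean over the 4 libraries was 1 FPKM or more entered. The study names no test for the sequencing. Calls used a Benjamini-Hochberg adjusted p under 0.05 over all genes tested, or a fold of at least 1.5 with an unadjusted p under 0.05. The fit was tested on simulated data. Depth was estimated in genes with 1 transcript, whose low values lie on steps of 1 fragment, with GENCODE M21 lengths. No count test was used, since the tables hold FPKM. Promoters and coordinates were from RefSeq.

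All 10 genes are named, and of each list at most 3 others, first those called in HSCs and then those with the largest change in BMDM auranofin replicate 1. Cd44, Nfe2l2, Acta2 and Clec4f are named after their values were seen. Alternatives changed 1 choice at a time: pseudocount 0.1, no filter or a mean of at least 5 FPKM, quantile normalization, median centring, TPM rescaling, no trend, no moderation, a block for the replicate number, a fold of 2, and each library left out. Other steps ran in Python 3.11.15 with scipy 1.17.1, pandas 2.3.3, numpy 2.4.6 and matplotlib 3.10.9.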

Additional observations from a re-analysis of the deposited data

How the results depend on the processing

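The log2 fold changes of Slc7a11, Gclc, Gclm, Gss, Gsr, Glrx and Ggt5 in HSCs kept their direction under every alternative that gave a value. The libraries are 2 against 2, so calls rest on the variance limma borrows across genes. In HSCs 0 genes, and so 0 of the 9 tested, were called at an adjusted p under 0.05 without moderation. Without the filter on low values 49 genes and 1 of the 10, Gclm, were called, by a fit that tested 18645 genes, and without the trend 129 genes. With each library left out in turn, HSC calls at an adjusted p ran from 177 to 493 genes and from 2 to 5 of the 9 tested. By fold and unadjusted p they ran from 106 to 137 genes. That count, 70 in the main fit, was 124 with a pseudocount of 0.1 and 106 after TPM rescaling. It was 17 at 2-fold, where 1 of the 9 tested was called, Gclm. Of the 70, 52 were higher and 18 lower, against 65 and 41 after TPM rescaling, and the cause was not tested.

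In BMDMs the results rest on auranofin replicate 1. With each library left out in turn, calls at an adjusted p ran from 1 to 5997 genes and from 0 to 6 of the 8 tested. Calls by fold and unadjusted p ran from 14 to 2122 genes and from 0 to 6 of the 8 tested. Non-overlapping groups ran from 2 to 8 of the 8 tested. The highest values were those without auranofin replicate 2. Without auranofin replicate 1, 13 genes were called at an adjusted p, and the log2 fold changes of Slc7a11, Slc3a2, Gclc, Gss, Gsr, Glrx and Chac2 reversed. Their ranges with each library left out were -0.23 to 3.72 in Slc7a11, -0.18 to 0.54 in Slc3a2, -0.076 to 3.19 in Gclc, -0.073 to 1.42 in Gss, -0.077 to 1.63 in Gsr, -0.13 to 0.015 in Glrx and -0.74 to 0.15 in Chac2. Slc3a2 also reversed without vehicle replicate 2, to -0.047. Of all genes, 0 were called at an adjusted p without the filter, with quantile normalization and without moderation, and 2 without the trend. The 14 called by fold and unadjusted p became 27 with a pseudocount of 0.1, 8 with a mean of at least 5 FPKM, 7 without moderation and 7 at 2-fold. They were 8 higher and 6 lower, against 8 and 10 after quantile normalization or median centring. Under quantile normalization 2 of the 8 tested had groups that did not overlap, and the share over all genes was not computed for that setting. In the main fit it was 1 of the 8, beside 38.8% of all genes. In HSCs, Slc3a2 ran from -0.027 without vehicle replicate 1 to 0.42, and Chac2 from -0.12 to 0.040, reversing without vehicle replicate 1 and without auranofin replicate 2.

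With the replicate number as a block, 42 BMDM genes were called by fold and unadjusted p. In HSCs 5 of the 9 genes tested were then called at an adjusted p, Gss being the addition, beside 282 of all 12149 genes tested. The deviations of same-numbered libraries correlated at 0.109 in HSCs and -0.0551 in BMDMs, and no source says what the numbers mark. With 2 pairs this does not settle whether they pair the samples, so they were not treated as pairs.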
